A study of Mus musculus with 11 samples.

Results

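The receptors for type I interferon, interferon-gamma and interleukin-10 and the 4 Janus kinases (JAKs) were examined in mouse peritoneal macrophages that had received a microRNA-150 (miR-150) mimic or a negative control. A mimic is a synthetic RNA given to raise the activity of a microRNA, a short RNA that represses the transcripts it pairs with. The 10 genes, Ifnar1, Ifnar2, Ifngr1, Ifngr2, Il10ra, Il10rb, Jak1, Jak2, Jak3 and Tyk2, were chosen by symbol, and all 10 were found among the 31936 genes of the deposited table. Cells were elicited with thioglycollate in female mice. The mimic group, labelled microRNA-150 mimic, held 6 libraries (replicates 1 to 6), and the negative control group held 5 (replicates 1, 2, 3, 4 and 6). The labels give no dose, duration, strain or age, do not describe the control, and are silent on whether replicates came from different animals or cultures; the p-values reflect only the variation among these libraries, part of which could be technical.

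Each of these receptors is built from a pair of chains, both of which carry a JAK on the part inside the cell. IFNAR1 binds TYK2 and IFNAR2 binds JAK1 in the receptor for type I interferons; IFNGR1 binds JAK1 and IFNGR2 binds JAK2 in the receptor for interferon-gamma; IL10RA binds JAK1 and IL10RB binds TYK2 in the interleukin-10 receptor. When a ligand joins the chains, the kinases phosphorylate them and STAT proteins, which then enter the nucleus and switch on target genes. In macrophages the interferon receptors drive antiviral and microbicidal programmes and the interleukin-10 receptor restrains inflammatory cytokines. JAK3 works with the common gamma chain of a separate set of interleukin receptors.

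Libraries held 20313901 to 25473814 recovered reads with the mimic and 18538509 to 22668862 in controls. Levels are given as CPM, the reads of a gene scaled by the depth of its library, or as their log2. Macrophage markers (Adgre1, Cd68, Csf1r, Itgam, Lyz2, Cd14, Mertk and Fcgr1) were detected throughout, their summed level being 16300 to 19700 CPM with the mimic and 18100 to 20400 CPM in controls. With the mimic, 2 of these 8 were called higher and 2 lower, against 15.4% and 14.6% of all tested genes. Markers of B cells, T cells, natural killer cells and mast cells each summed to at most 1.99 CPM in any mimic library and 2.15 CPM in any control. Dendritic cell markers summed to 3.24 to 4.54 CPM with the mimic and 3.62 to 4.85 CPM in controls, mesothelial markers to 4.07 to 7.23 and 5.27 to 7.32 CPM, and neutrophil markers to 77.7 to 102 and 90.9 to 97.6 CPM, with 0 reads of the neutrophil gene S100a9 over the mimic libraries and 2 over the controls. Most neutrophil marker reads were those of Mmp8. Of these other markers only S100a8 was called, lower with the mimic, and the part of other cell types in the results below was not tested. In bulk RNA, fewer cells of a type and less RNA per cell cannot be told apart.

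The mimic libraries differed among themselves far more than the controls did, with replicates 3, 4 and 6 toward one end and replicate 1 at the other. On the leading principal component of the deviations from group means (28.3% of their variance) mimic replicates 3, 4 and 6 lay at 8.33, 18.4 and 16.4, mimic replicate 1 at -24.9, mimic replicates 2 and 5 at -9.70 and -8.60, and the controls between -2.15 and 2.23. Sample weights estimated by voom were lowest for mimic replicate 1 (0.356) and highest for mimic replicate 3 (1.82). Across tested genes, the log2 level relative to the control mean changed with the log2 of transcript length by 0.092, 0.12 and 0.11 in mimic replicates 3, 4 and 6, by -0.029, 0.051 and 0.032 in mimic replicates 1, 2 and 5, and by -0.016 to 0.010 in the controls. Results are therefore given with and without mimic replicates 3, 4 and 6, and the cause of their difference was not tested. These libraries were set apart on the same data, so p-values without them are descriptive and not independent tests. Mimic replicate 1, at the other end, stays in that fit. Without mimic replicate 1 the same 4 members were called as with all libraries, and 5199 of all genes against 3892.

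Of the 10 receptor and JAK genes, 4 were called (limma adjusted p below 0.05) when mimic was compared with control: Jak2, Il10ra and Jak1 rose and Ifngr1 fell. Across all 12969 tested genes 30% were called, 15.4% higher and 14.6% lower, so a count of 4 in 10 stands close to that of genes at large. With library totals left unscaled the split over all genes was 1597 higher and 2126 lower, against 1997 and 1895. In size, the 10 genes had a median absolute change of 0.088 log2 units, against 0.14 over all tested genes and 0.26 over the genes called, and a median signed change of 0.033, against 0.00071 over all. All 10 passed the filter on low values, in both groups. In 2 of the 10, Jak2 and Ifngr1, no mimic library overlapped a control library, against 14.9% of all tested genes. The authors' deposited table has an adjusted p-value below 0.05 for 4 of the 10 as well, the same genes, with log2 fold changes of 0.24 for Jak2, 0.14 for Il10ra, 0.13 for Jak1 and -0.20 for Ifngr1.

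**Figure D1:**
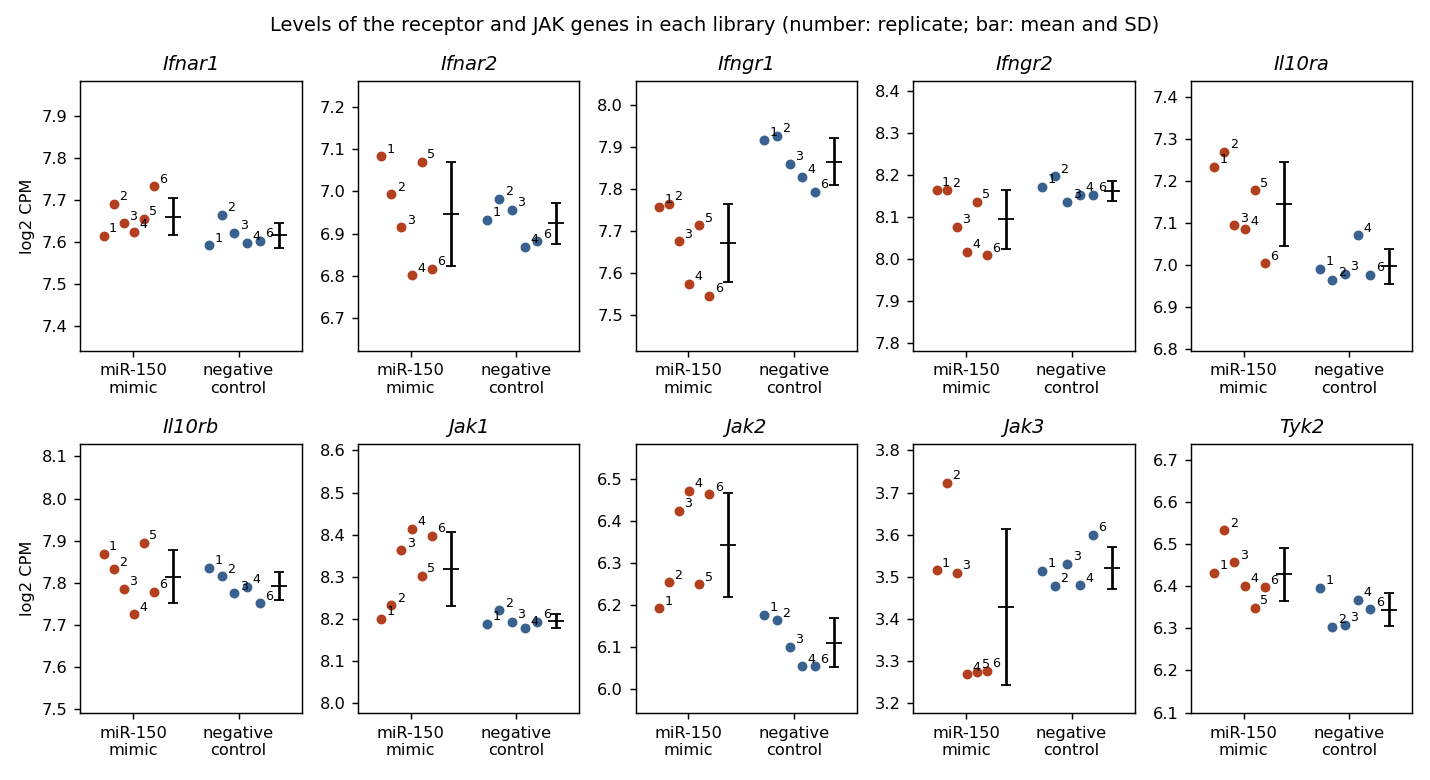
Level of each of the 10 genes in log2 CPM (vertical axes, each spanning the same width) in every library of the miR-150 mimic group (left in each panel) and the negative control group (right); numbers are replicate numbers and bars are the mean and SD. Only the panels of Jak2 and Ifngr1 show groups that do not overlap, and the mimic libraries are more spread than the controls in every panel.

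The receptor for type I interferon did not pass in either chain. Ifnar1 (chromosome 16, 91485238 to 91507441, GRCm38, plus strand) had 196, 200.8 and 213 CPM as the lowest, median and highest mimic library, against 193, 203, 197, 194 and 194 CPM in control replicates 1, 2, 3, 4 and 6. Its mimic values reached into and just above the control range, with 2 of 6 above every control. The log2 fold change was 0.044 ± 0.035 (SE; 95% interval -0.031 to 0.12; limma adjusted p = 0.364), and it was 0.037 without mimic replicates 3, 4 and 6. Ifnar2, which forms the high-affinity chain and is also made as a soluble form, lies on the same strand at 91372783 to 91405589. It had 112, 124.0 and 136 CPM as the lowest, median and highest mimic library and 122, 126, 124, 117 and 118 CPM in the controls. Mimic replicates 1, 2 and 5 lay above every control and replicates 4 and 6 below every control, so that the mimic values surrounded those of the controls. Its log2 fold change was 0.022 ± 0.054 (SE; 95% interval -0.092 to 0.14; limma adjusted p = 0.777). Without mimic replicates 3, 4 and 6, the lowest mimic libraries for Ifnar2, the log2 fold change was 0.12 (limma adjusted p = 0.0238). Leaving out the lowest libraries raises the value by itself, so this is not counted as a pass. Soluble and membrane forms were counted together, as 1 gene.

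Ifngr1, the ligand-binding chain of the interferon-gamma receptor (chromosome 10, 19591949 to 19610229, plus strand), was the member that fell. It had 216.5, 217.5, 204, 191, 209.9 and 187 CPM in mimic replicates 1 to 6, against 241.5, 243, 232, 227 and 222 CPM in control replicates 1, 2, 3, 4 and 6. The highest mimic library was below the lowest control. On the log2 scale Ifngr1 averaged 7.67 ± 0.093 (SD, n = 6) with the mimic and 7.86 ± 0.057 (SD, n = 5) in controls, so that the log2 fold change came to -0.19 ± 0.047 (± SE; limma adjusted p = 0.00693), or 1.14-fold lower. A two-sided exact permutation test over all ways to assign the libraries to the groups gave p = 0.00433, where the smallest possible is 0.00216. The fall was called in each of the 23 alternatives tried, with log2 fold changes from -0.21 to -0.12. It was -0.12 without mimic replicates 3, 4 and 6 (limma adjusted p = 0.0235).

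Ifngr2, the chain that brings JAK2 to the interferon-gamma receptor, did not pass. It lies 174.3 kb from Ifnar2 on chromosome 16 (91547072 to 91565623, plus strand), and had 258, 275.6 and 287 CPM as the lowest, median and highest mimic library and 288, 293, 281, 284 and 285 CPM in the controls. Of the 6 mimic libraries 4 lay below every control. For Ifngr2 the log2 fold change was -0.068 ± 0.039 (SE; 95% interval -0.15 to 0.015; limma adjusted p = 0.201), and -0.0073 without mimic replicates 3, 4 and 6.

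Il10ra, the ligand-binding chain of the interleukin-10 receptor (chromosome 9, 45253837 to 45269149, minus strand), rose. It had 151, 154, 137, 136, 145 and 128 CPM in mimic replicates 1 to 6, against 127, 125, 126, 134.5 and 126 CPM in control replicates 1, 2, 3, 4 and 6. Mimic replicates 1 to 5 exceeded every control, and mimic replicate 6 fell inside the control range. The means were 7.14 ± 0.10 log2 CPM (SD, n = 6) with the mimic and 7.00 ± 0.042 log2 CPM (SD, n = 5) in controls, and the log2 fold change was 0.15 ± 0.048 (SE; limma adjusted p = 0.0289; two-sided exact permutation p = 0.0108). Without mimic replicates 3, 4 and 6, the lowest mimic libraries for Il10ra, the value was larger, 0.23 (limma adjusted p = 4.71e-05). Leaving out the lowest libraries raises the value by itself. The call was lost without mimic replicate 2 (0.12, limma adjusted p = 0.0561) and without control replicate 1 (0.15, 0.0579), 2 (0.14, 0.068), 3 (0.14, 0.0627) or 6 (0.14, 0.0641). In those fits without a control, all genes called also fell, to 2918 to 3101 against 3892 with all libraries. Without mimic replicate 2 they numbered 3972.

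Il10rb, the chain that interleukin-10 shares with related cytokines (chromosome 16, 91406164 to 91425834, plus strand), did not pass. It had 212, 224 and 238 CPM as the lowest, median and highest mimic library and 228, 225, 219, 221 and 215 CPM in the controls. The groups overlapped, with 2 of 6 mimic libraries above every control and 1 below. Its log2 fold change was 0.021 ± 0.039 (SE; 95% interval -0.061 to 0.10; limma adjusted p = 0.708), and 0.072 without mimic replicates 3, 4 and 6 (limma adjusted p = 0.157).

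Because both chains are needed for a receptor, the difference in log2 CPM between the chains was compared within each library, a comparison added after the values were seen. For the interferon-gamma receptor, Ifngr1 minus Ifngr2 averaged -0.42 ± 0.026 (SD, n = 6) with the mimic and -0.30 ± 0.043 (SD, n = 5) in controls. The mimic libraries ranged from -0.463 to -0.399 and the controls from -0.36 to -0.256, with no overlap. The shift of -0.125 had a two-sided exact permutation p of 0.00216, the smallest that these libraries allow (0.00648 after adjustment over 3 receptors). It stood at -0.112 without mimic replicates 3, 4 and 6 (exact permutation p = 0.0357, smallest possible 0.0179). The longest transcripts of Ifngr1 and Ifngr2 differ in length, 2112 and 3708 nt. After correction of each library for transcript length their log2 fold changes were -0.15 and -0.085. These lie closer together than the -0.19 and -0.068 without it, and the shift was not tested after that correction.

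For the interleukin-10 receptor, Il10ra minus Il10rb averaged -0.67 ± 0.074 (SD, n = 6) with the mimic and -0.80 ± 0.054 (SD, n = 5) in controls, a shift of 0.127 (two-sided exact permutation p = 0.0108; 0.0162 after adjustment over the 3 receptors). Its ranges overlapped, -0.773 to -0.563 with the mimic and -0.85 to -0.719 in controls. For the type I interferon receptor, Ifnar1 minus Ifnar2 averaged 0.71 ± 0.14 (SD, n = 6) with the mimic and 0.69 ± 0.032 (SD, n = 5) in controls, and the shift of 0.022 did not pass (two-sided exact permutation p = 0.747). Its mimic libraries ranged from 0.531 to 0.916 and surrounded the controls at 0.659 to 0.729. That shift was -0.087 without mimic replicates 3, 4 and 6 (exact permutation p = 0.0893) and -0.019 without mimic replicate 6 (0.786). With the length correction the log2 fold changes were 0.14 for Il10ra, 0.033 for Il10rb, 0.021 for Ifnar1 and 0.027 for Ifnar2.

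**Figure D2:**
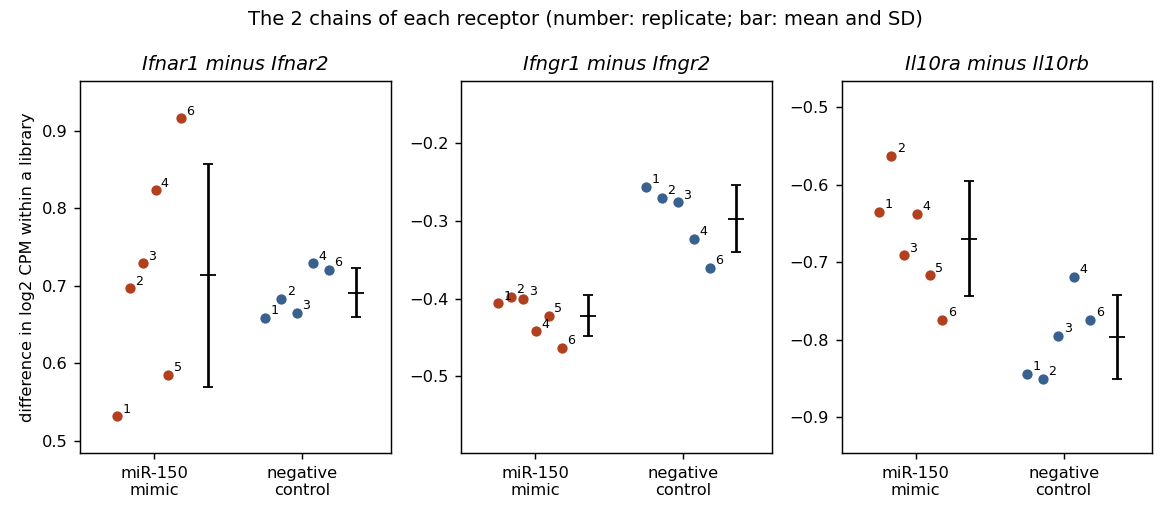
Difference in log2 CPM between the 2 chains of each receptor within a library (vertical axes), for the miR-150 mimic libraries (left) and the negative control libraries (right); numbers are replicate numbers and bars are the mean and SD. Ifngr1 minus Ifngr2 separates the groups, with mimic libraries from -0.463 to -0.399 and controls from -0.36 to -0.256, while Ifnar1 minus Ifnar2 is wide with the mimic and narrow in controls.

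Among the kinases, Jak2, which serves the interferon-gamma receptor through IFNGR2 and also several growth factor receptors, had the largest change of the 10 members with all libraries; without mimic replicates 3, 4 and 6 Il10ra changed by 0.230, Ifnar2 by 0.1245 and Jak2 by 0.1213. It lies on chromosome 19 (29251828 to 29313080, plus strand). Jak2 had 73.1, 76.3, 85.9, 88.7, 76.1 and 88.2 CPM in mimic replicates 1 to 6, against 72.4, 71.7, 68.6, 66.5 and 66.5 CPM in control replicates 1, 2, 3, 4 and 6. Every mimic library exceeded every control, and mimic replicates 3, 4 and 6 were the highest. Its means were 6.34 ± 0.12 log2 CPM (SD, n = 6) with the mimic and 6.11 ± 0.058 log2 CPM (SD, n = 5) in controls. The log2 fold change was 0.23 ± 0.056 (SE; limma adjusted p = 0.00654; two-sided exact permutation p = 0.00433), or 1.17-fold. Without mimic replicates 3, 4 and 6 the rise was 0.12 (limma adjusted p = 0.0462), and after correction of each library for transcript length it was 0.19 (limma adjusted p = 0.00362). It was called in each of the 23 alternatives.

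Jak1, the kinase common to all 3 receptors (chromosome 4, 101152367 to 101265282, minus strand), rose by less. It had 294, 301, 329, 341, 316 and 337 CPM in mimic replicates 1 to 6, against 292, 298, 293, 289.6 and 293 CPM in control replicates 1, 2, 3, 4 and 6. Mimic replicate 1 lay within the control range and the other 5 mimic libraries above it. The control libraries were close together, 8.20 ± 0.016 log2 CPM (SD, n = 5), and the mimic libraries were at 8.32 ± 0.088 (SD, n = 6). The log2 fold change was 0.12 ± 0.043 (SE; limma adjusted p = 0.0378; two-sided exact permutation p = 0.0195). Without mimic replicates 3, 4 and 6 it was 0.051 and did not pass (limma adjusted p = 0.336), nor did it after the correction for transcript length (0.079, limma adjusted p = 0.0653). The call was also lost with library totals left unscaled (0.11, limma adjusted p = 0.0868) and with each library centred on its median (0.12, 0.06). Jak1 was likewise not called without any of mimic replicates 3, 4 and 6 alone (0.10 to 0.11, 0.0735 to 0.0825). The same held without any of the 5 controls (0.12 to 0.13, 0.0596 to 0.0795). With any of these single libraries omitted, all genes called also fell, to 2908 to 3101 against 3892.

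Tyk2, which works with IFNAR1 and IL10RB (chromosome 9, 21104068 to 21131243, minus strand), had 81.5, 85.4 and 92.6 CPM as the lowest, median and highest mimic library and 84.2, 79.0, 79.3, 82.6 and 81.3 CPM in the controls. Mimic libraries lay above every control in 5 of 6 cases, at 84.29 to 92.62 CPM against a highest control of 84.24. The log2 fold change of 0.084 ± 0.041 (SE; 95% interval -0.0023 to 0.17) did not pass (limma adjusted p = 0.127), and it was 0.093 without mimic replicates 3, 4 and 6. The unadjusted two-sided exact permutation p of Tyk2 was 0.026, against 0.0195 for Jak1. Jak3 (chromosome 8, 71676296 to 71690575, plus strand) was the least abundant member, with 225 to 287 reads per library with the mimic and 211 to 261 in controls. It had 9.64, 10.5 and 13.2 CPM as the lowest, median and highest mimic library and 11.4, 11.2, 11.6, 11.2 and 12.1 CPM in the controls. Mimic replicates 4, 5 and 6 lay together below every control and mimic replicate 2 above. For Jak3 the log2 fold change was -0.092 ± 0.080 (SE; 95% interval -0.26 to 0.077; limma adjusted p = 0.402), and -0.016 without mimic replicates 3, 4 and 6.

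**Figure D3:**
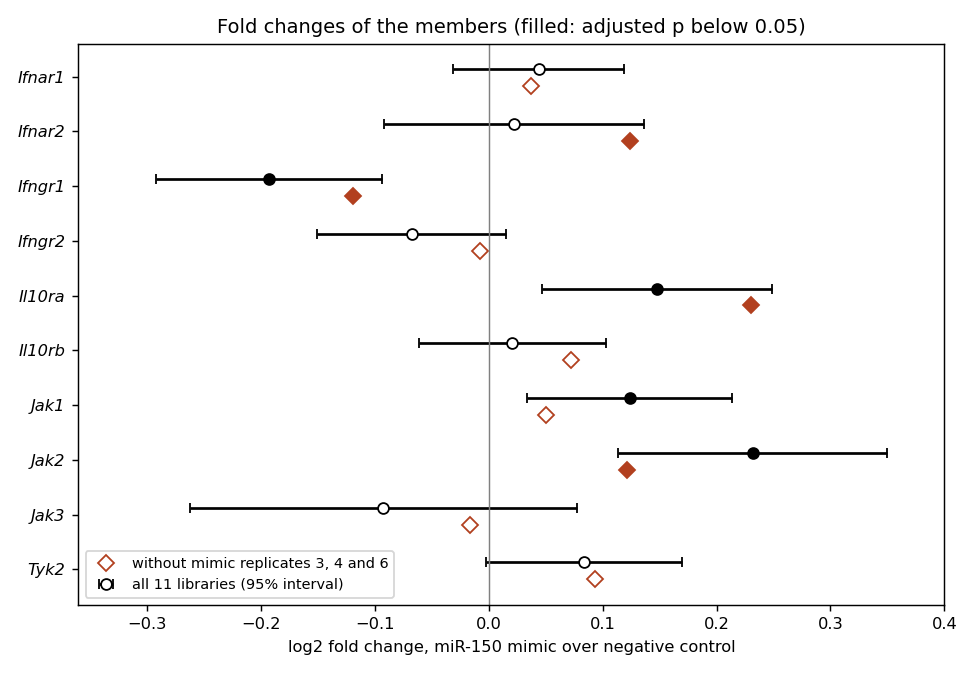
Log2 fold change of each gene, miR-150 mimic over negative control (horizontal axis), with all 11 libraries (circles with 95% intervals) and without mimic replicates 3, 4 and 6 (diamonds); filled symbols have an adjusted p below 0.05. Jak1 is filled only with all libraries and Ifnar2 only without the 3 mimic libraries, while Ifngr1, Il10ra and Jak2 are filled in both. The 3 libraries were set apart on these same data, so the diamonds are descriptive.

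The mimic libraries differed among themselves in a recurring way. Jak2 and Jak1 stood 0.31 to 0.36 and 0.17 to 0.22 log2 units above their control means in mimic replicates 3, 4 and 6, against 0.082 to 0.14 and 0.006 to 0.11 in mimic replicates 1, 2 and 5. Ifngr1, Ifngr2, Ifnar2, Il10ra and Il10rb were lower in mimic replicates 3, 4 and 6 than in any of mimic replicates 1, 2 and 5. For Ifngr1 the differences from the control mean were -0.32 to -0.19 against -0.15 to -0.10. They were -0.12 to -0.009 against 0.069 to 0.16 for Ifnar2, and 0.007 to 0.098 against 0.18 to 0.27 for Il10ra. Those of Ifngr2 were -0.15 to -0.086 against -0.026 to 0.002, and those of Il10rb -0.068 to -0.008 against 0.039 to 0.10. Ifnar1 did not separate in this way, at 0.008 to 0.12 against -0.001 to 0.075. The longest annotated transcripts of Jak1 and Jak2 have 4906 and 5030 nt, and those of Ifngr1, Ifnar2 and Il10ra 2112, 3047 and 3498 nt. Those of Ifngr2 and Il10rb have 3708 and 2791 nt, and that of Ifnar1 has 3909 nt. Tyk2, at 4828 nt, did not show the pattern of Jak1 and Jak2, standing 0.053 to 0.11 above its control mean in mimic replicates 3, 4 and 6 and 0.004 to 0.19 above it in mimic replicates 1, 2 and 5. Jak3, at 4049 nt, was lowest in mimic replicates 4, 5 and 6. The part of transcript length in these differences was not tested beyond the correction given above.

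**Figure D4:**
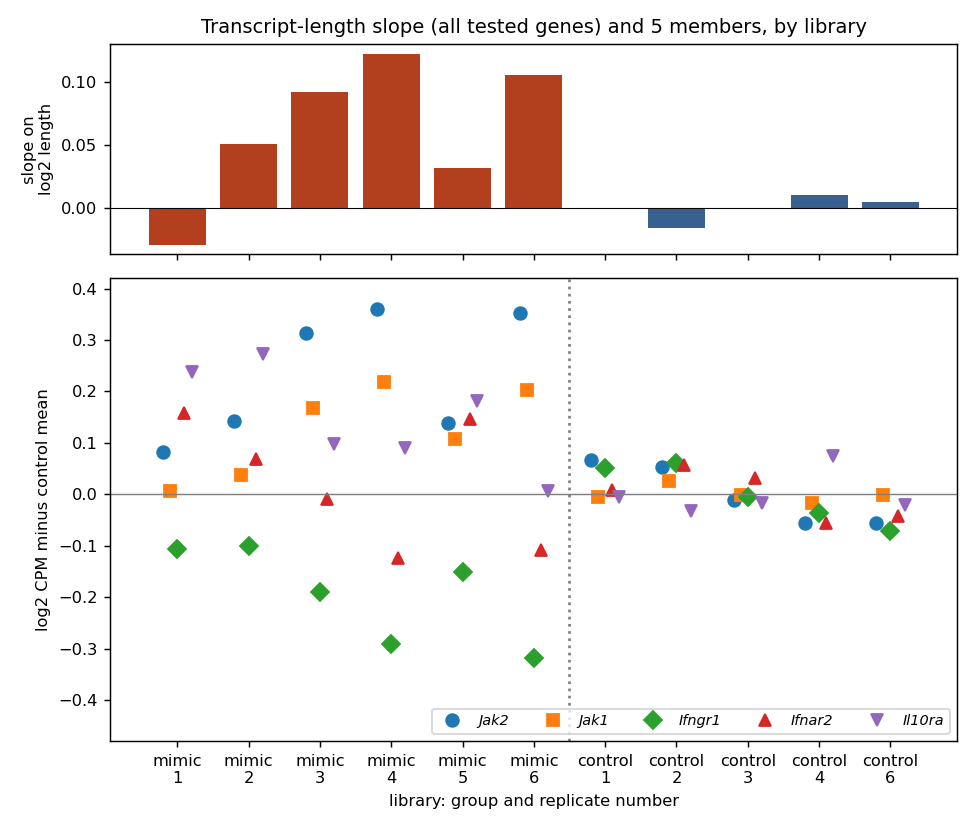
Upper panel: slope of the log2 level, relative to the control mean, on log2 transcript length over all tested genes, for each library. Lower panel: log2 CPM minus the control mean for Jak2, Jak1, Ifngr1, Ifnar2 and Il10ra in the mimic libraries (left of the dotted line) and the controls (right); Over all libraries shown, Jak2 and Jak1 are highest and Ifngr1 is lowest in mimic replicates 3, 4 and 6, whose slopes of 0.092, 0.12 and 0.11 are the steepest.

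Levels between the genes were compared per kb of the longest annotated transcript. In both groups the order from high to low was Ifngr1, Il10rb, Ifngr2, Jak1, Ifnar1, Ifnar2, Il10ra, Tyk2, Jak2 and Jak3. Ifngr1 stood at 6.59 ± 0.093 log2 CPM per kb with the mimic (SD, n = 6) and 6.79 ± 0.057 in controls (SD, n = 5), and Jak3 at 1.41 ± 0.19 with the mimic and 1.5 ± 0.050 in controls. With the mimic, neighbours whose library ranges overlapped were Il10rb and Ifngr2, Ifngr2 and Jak1, Ifnar2 and Il10ra, and Tyk2 and Jak2. In controls the overlapping neighbours were Il10rb and Ifngr2, and Ifnar2 and Il10ra. The order depends on the length used: with all annotated exons joined, Ifngr2 (6.18) stood above Ifngr1 (6.16) with the mimic and below it in controls (6.25 and 6.36 log2 CPM per kb), and Jak2 stood above Tyk2 in both groups. Jak3 was the lowest by either length.

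Of the 6 receptor chain genes, 4 form a cluster on chromosome 16, where Ifnar2, Il10rb, Ifnar1 and Ifngr2 follow each other on the plus strand over 192.8 kb (GRCm38). None of these 4 passed the test with all libraries, with log2 fold changes from -0.068 to 0.044, whereas the 2 receptor chains that were called, Ifngr1 and Il10ra, lie on other chromosomes. In the cluster and within 150 kb of it 13 genes were tested, the 4 receptor genes among them, and 2 were called, against 30% of all tested genes. Both were higher and lay beyond Ifngr2: Son, whose product binds DNA and RNA, at 0.33 ± 0.062 (SE; limma adjusted p = 0.00138) and the noncoding transcript Gm15964 at 0.33 ± 0.12 (SE; limma adjusted p = 0.0489). Annotated exons overlap here: Gm21970, a gene on the same strand, shares 9.46% of the exon bases of Ifnar2 and 14.9% of those of Il10rb, and how the authors' counting treated such reads is not given in the sources used here. Insl3 likewise shares 7.55% of the exon bases of Jak3, and the antisense gene 1700084C06Rik 8.07% of those of Tyk2. Reads in the overlaps were not measured here, so the counts of these members are uncertain by an unknown amount.

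**Figure D5:**
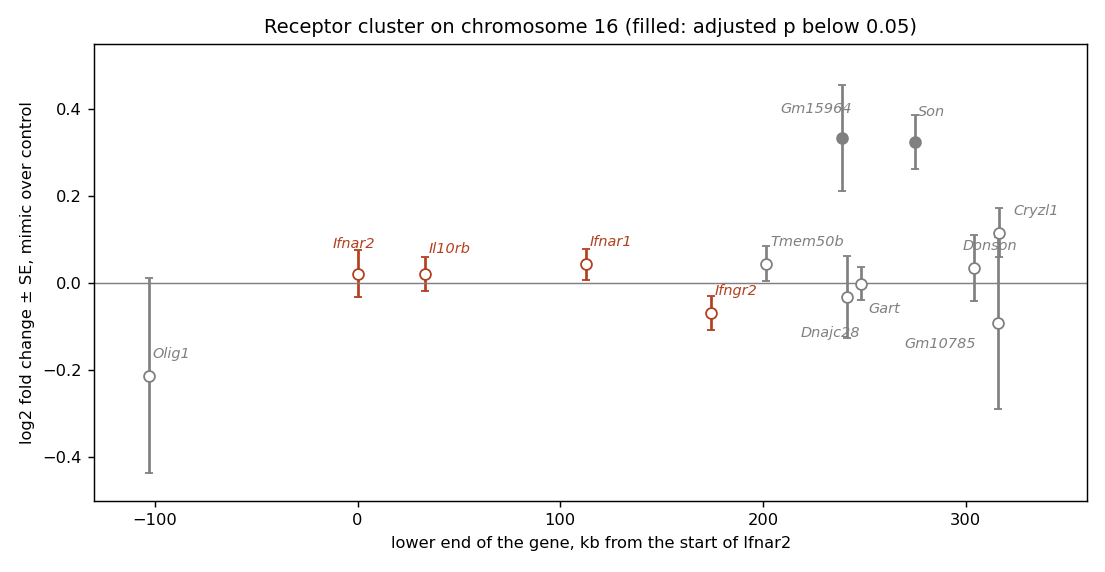
Log2 fold change with its SE, miR-150 mimic over negative control (vertical axis), of the tested genes in and around the receptor cluster, by distance of each gene's lower coordinate from the start of Ifnar2 in kb (horizontal axis). The 4 receptor genes (coloured) lie between -0.068 and 0.044 and are unfilled, as none has an adjusted p below 0.05; Gm15964 and Son, to their right, are filled at 0.33.

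Promoter sequences, from 250 bases before to 50 after the annotated start, are shown for the 2 members called in every alternative, Jak2 and Ifngr1, and for the 2 chains of the type I interferon receptor. Stat2, a signal carrier of that receptor whose transcript rose, is also shown and was picked after its value was seen. They come from RefSeq (GRCm38.p6), which gave a promoter for 8 of the 10 members, Il10ra and Il10rb being the others. The windows are chr19:29251553-29251852 (plus strand) for Jak2, chr10:19591699-19591998 (plus) for Ifngr1, chr16:91484965-91485264 (plus) for Ifnar1, chr16:91372533-91372832 (plus) for Ifnar2 and chr10:128270248-128270547 (plus) for Stat2, each written 5′ to 3′. Capitals mark matches, on either strand, to the interferon-stimulated response element (ISRE, searched as GAAANNGAAA) or the gamma-activated site (GAS, searched as TTCNNNGAA, which reads the same on both strands).
Jak2: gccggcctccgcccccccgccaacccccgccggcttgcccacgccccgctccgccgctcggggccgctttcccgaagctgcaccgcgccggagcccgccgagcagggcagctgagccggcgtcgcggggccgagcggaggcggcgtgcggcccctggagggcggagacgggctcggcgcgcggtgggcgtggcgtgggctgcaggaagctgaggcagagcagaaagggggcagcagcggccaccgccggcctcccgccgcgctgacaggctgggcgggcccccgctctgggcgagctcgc
Ifngr1: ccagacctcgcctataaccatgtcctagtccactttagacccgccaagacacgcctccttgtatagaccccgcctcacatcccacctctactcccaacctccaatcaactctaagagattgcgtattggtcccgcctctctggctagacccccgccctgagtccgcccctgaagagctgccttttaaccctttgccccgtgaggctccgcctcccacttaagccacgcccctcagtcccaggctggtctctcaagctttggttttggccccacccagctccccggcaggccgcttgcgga
Ifnar1: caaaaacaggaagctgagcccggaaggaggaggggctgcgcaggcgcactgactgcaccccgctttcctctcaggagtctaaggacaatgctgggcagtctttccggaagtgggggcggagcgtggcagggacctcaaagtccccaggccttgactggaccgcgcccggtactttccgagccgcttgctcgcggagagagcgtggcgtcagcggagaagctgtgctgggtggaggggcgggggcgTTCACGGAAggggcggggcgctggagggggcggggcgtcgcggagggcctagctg
Ifnar2: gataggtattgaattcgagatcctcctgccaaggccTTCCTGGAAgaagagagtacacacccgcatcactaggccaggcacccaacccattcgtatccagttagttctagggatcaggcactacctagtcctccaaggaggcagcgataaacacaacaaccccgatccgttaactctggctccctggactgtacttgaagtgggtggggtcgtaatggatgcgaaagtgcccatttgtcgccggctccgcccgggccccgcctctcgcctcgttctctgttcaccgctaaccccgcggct
Stat2: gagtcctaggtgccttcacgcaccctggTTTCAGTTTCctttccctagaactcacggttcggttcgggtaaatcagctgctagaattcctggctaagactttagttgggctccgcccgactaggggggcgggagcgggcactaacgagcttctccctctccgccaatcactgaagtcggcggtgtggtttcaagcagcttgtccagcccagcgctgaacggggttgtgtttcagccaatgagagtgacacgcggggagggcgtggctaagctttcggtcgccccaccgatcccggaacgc

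The ISRE letters occurred in 0 of the 8 member promoters, against 3.44% of 32851 promoters searched. The GAS letters occurred in 2 of the 8, Ifnar1 (at position -5 from the start) and Ifnar2 (at -214), against 8.3% of all promoters. Neither of those genes passed the test with all libraries, and the promoters of Jak2 and Ifngr1 held no match. Of the 8 STAT and Irf9 genes and 22 listed regulators of the pathway that were tested, promoters were searched for 20. Usp18 was not among those searched. In these 20, 3 genes held the ISRE letters: Stat2 (at -222, minus strand), Socs1 and Stat4. No ISRE match overlapped a GAS match. Some of these genes had more than 1 window, and Stat4 matched in only 1 of its own, whereas the 3.44% counts single windows. Socs1 rose by 0.67 (limma adjusted p = 0.00513) and Stat2 also rose, but Stat4 was not called (0.21, limma adjusted p = 0.572). Irf9, which rose, held no ISRE match. A match is a run of letters and not a measured binding site, and its absence says only that these letters are not in the window. The promoter of Jak2 was 81% G and C and that of Ifngr1 60.3%, against a median of 52.7% over all promoters.

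Transcripts of the listed ligands of the interferon and interleukin-10 families were barely present. Of 16 listed ligand genes 13 were in the table and 0 passed the filter on low values. Reads of Ifnb1 numbered 15 over the 6 mimic libraries and 2 over the 5 controls, those of Il10 numbered 16 and 16, and those of Ifng 1 and 0. Of 6 other class II cytokine receptors 2 were tested, and F3, tissue factor, fell by 0.38 ± 0.076 in log2 units (adjusted p from limma 0.00197). Ifnlr1, the lambda interferon receptor, had 9 reads over the mimic libraries and 8 over the controls.

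Downstream of the receptors, 4 of 8 STAT genes and Irf9 were higher and 1 was lower, against 15.4% and 14.6% of all tested genes. Their median was 0.18 on the log2 scale, against 0.00071 over all tested genes. Stat2, which carries type I interferon signals, rose by 1.56 ± 0.090 (SE), and Irf9, its partner in the complex that binds the ISRE, by 0.71 ± 0.052 (limma adjusted p of at most 2.29e-08). Stat3, which the interleukin-10 receptor activates, rose by 0.15 ± 0.035 and Stat5b fell by 0.18 ± 0.039 (limma adjusted p = 0.00524 and 0.00358). The same counts, 4 higher and 1 lower, were obtained without mimic replicates 3, 4 and 6, against 1214 and 886 of all 12969 tested genes.

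Listed regulators of the pathway, most but not all of them inhibitors, moved in both directions. Of 22 tested 6 were higher and 5 lower, against 15.4% and 14.6% of all tested genes. Their median was 0.015. Usp18, which binds IFNAR2 and displaces JAK1, rose by 1.82 ± 0.093 (SE; limma adjusted p = 1.19e-09). Socs3, which blocks JAKs at gp130-type receptors, fell by 0.52 ± 0.063 (limma adjusted p = 1.46e-05). The phosphatase genes Ptprc and Ptpn6 rose by 0.28 ± 0.055 and 0.21 ± 0.045 (limma adjusted p = 0.00178 and 0.00273). Without mimic replicates 3, 4 and 6 the counts were 4 higher and 1 lower, against 1214 and 886 of all 12969 tested genes.

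Other cytokine receptors that use JAKs gave 5 higher and 6 lower among 20 tested of 30 listed, against 15.4% and 14.6% of all tested genes. Their median was -0.029. Il21r rose by 0.98 ± 0.10 (SE) on the log2 scale, Il15ra by 0.60 ± 0.069 and Il13ra1, a chain of the interleukin-13 receptor, by 0.30 ± 0.043 (limma adjusted p of at most 8.55e-05). Il27ra, the interleukin-27 receptor, fell by 0.40 ± 0.066 (limma adjusted p = 0.000399). Il2rg, the common gamma chain that JAK3 serves, rose by 0.26 ± 0.066 (limma adjusted p = 0.00797) and was named after its value was seen. Without mimic replicates 3, 4 and 6 the counts were 5 higher and 2 lower, against 1214 and 886 of all 12969 tested genes. The receptors called came to 7 without control replicate 1, 3 or 4 or mimic replicate 3 or 6, and to 6 without control replicate 6. In those fits with 1 library left out, all genes called numbered 2908 to 3101.

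For the 4 called members, the genes whose deviations from the group means were most alike were found among the 6810 genes whose mean log2 CPM was 4 or more, over 11 libraries that share depth and length trend with the members. They were Mdfic and Eif1a for Jak2 (Pearson r = 0.987 and 0.983), Naaa and Cd74 for Ifngr1 (0.988 and 0.987), Ehmt2 and Lrrc41 for Il10ra (0.973 and 0.954) and Oxr1 and Gtf2a1 for Jak1 (0.997 and 0.981). These are descriptions over 11 libraries.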

How the data were processed

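RNA sequencing of 6 mimic and 5 control libraries was used. The submitters' processing notes name edgeR, featureCounts, Subread and STAR, without a version; build, annotation and strand setting are not given in the sources used here. A further sample, which the submitters left out for improper fragmentation, is not analysed here. The authors deposited their values as log2 CPM, which from the values themselves are the log2 of whole reads plus 0.5 over a scaled library total (0.97 to 1.03 times the recovered total); 100% of values gave whole reads within 0.01 read. The authors' deposited table also holds a log2 fold change, a p-value and an adjusted p-value per gene, whose test is not given. The first row per gene was kept, 31936 genes from 32265 rows.

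Linear models with a group term were fitted in R 4.3.3 (limma 3.58.1) to the deposited log2 CPM (trended, robust empirical Bayes) for the 12969 genes that reached a log2 CPM of -1 in 5 or more libraries. P-values carry Benjamini-Hochberg adjustment over those genes, and a gene was called below 0.05. The procedure was tested on simulated data. Positions and transcript lengths are from GENCODE M21 (GRCm38), which may not be the authors' annotation. Members and lists were chosen with earlier results of these data known. The genes named were all members, of each list all called genes up to 6 and otherwise the 4 with the smallest p, and the 2 most alike genes for each called member; Il2rg, Ifnlr1, marker genes, ligands and genes with motifs or near the cluster were named after their values were seen, and 1 gene under the rule is not reported here. Alternatives covered scaling, pseudocount, filter, voom sample weights, the replicate number as a block, a length correction (lowess, span 0.3), the threshold, and libraries left out. Pairs of replicates all differed by more than sampling noise (2.41 to 39.5 times the expected chi-square), so none was merged with another; this does not show that they are independent cultures. Figures used matplotlib 3.10.9.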

Additional observations from a re-analysis of the deposited data

Results flagged for a closer look

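Il10ra in control replicate 4 stood apart from the other controls, at 7.07 log2 CPM against 6.97 to 6.99 in the other 4, with a gap of 0.748 of the group's range where 0.71 is the 95% limit for 5 samples. This was 1 of 20 groups of libraries examined for the 10 members, and chance marks about 1 group in 20. Without that library the log2 fold change of Il10ra was 0.17 (limma adjusted p = 0.0321), against 0.15 with it.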

How the results depend on the processing

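The calls of Jak2 and Ifngr1 and their directions held in each of the 23 alternatives; Il10ra was called in 16 and Jak1 in 8. The 23 hold 1 fit 2 times, as omitting mimic replicate 5 leaves the libraries used for the block. In that fit Il10ra and Jak1 passed (limma adjusted p = 0.0494 and 0.049). The threshold of 0.01 reuses the main fit. Members called numbered 4, with 2 to 4 when 1 library was omitted, 2 at an adjusted p below 0.01 and 2 with the replicate block; in the block fit and at 0.01 these were Jak2 and Ifngr1. Over all tested genes the deviations of same-numbered libraries had correlations of -0.061 to 0.062. Of 5 mimic libraries, 2 correlated best with their own number. These values cannot decide whether the numbers mark pairs, as the mimic libraries vary far more than the controls. Without the block the same libraries gave 4 members called. All genes called numbered 3892, with 2908 to 5199 when 1 library was omitted, 3568 with the replicate block and 1759 at 0.01. They numbered 2100 without mimic replicates 3, 4 and 6 and 2377 when the length correction was added to that fit. Ifnar2, which did not pass, changed sign with the replicate block and with the same libraries without it (-0.0026 in both) and ranged from -0.0053 to 0.051 with each library left out. Ifnar1 minus Ifnar2 ranged from -0.0187 to 0.0583 with each library left out and was -0.0872 without mimic replicates 3, 4 and 6. Causes were not tested. The SEs of the members were 0.035 to 0.080 on the log2 scale.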
